A study of Mus musculus with 6 samples.

Results

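The genes described here are the protein phosphatases and their subunits whose single annotated symbol starts with Ppp followed by a digit, with Ptpn or with Ptpr, except Ppp1r15a. The rule found 75 such genes among 10698 genes with a symbol on the array, and 60 of them had a measured ratio on all 6 arrays. RNA from RAW 264.7 cells, a mouse macrophage line transformed by Abelson leukaemia virus, was compared after 1 h with lipopolysaccharide (LPS, 100 ng/ml) and LPS-binding protein (LBP, 100 pM) and after 1 h without either, with no vehicle given in the labels. Each of 6 dual-channel arrays carried both RNAs. The treated RNA was in Cy5 on 3 of them, called Cy5 arrays below, and in Cy3 on the other 3, called Cy3 arrays, with sets 1 to 3 in each orientation. Some labels and the series title give the line as RAW 264.4. Everything below is about this 1 line, and nothing in the labels says that the sets came from separate cultures.

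Protein phosphatases remove the phosphate groups that kinases add. The serine/threonine enzymes PP1 and PP2A gain their targets from large sets of regulatory subunits. Calcineurin is the calcium-activated member of the same family, and PP4, PP5 and PP6 are further relatives. Protein tyrosine phosphatases fall into cytosolic or nuclear non-receptor enzymes (Ptpn) and membrane-spanning receptor types (Ptpr). In macrophages they set the level of signalling by Src-family and JAK kinases and by inhibitory surface receptors.

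Each value is a log2 ratio of treated over untreated RNA on 1 array, so that 1 stands for a doubling, and a mean is given ± SD over the averages of the 3 sets (n = 3), each average holding 1 array of either orientation. Directions assume that the ratios divide Cy5 by Cy3. This is likely, since the labels call the Cy5 RNA the test and the Cy3 RNA the control, but it is not stated, and the opposite would turn all signs. As deposited, the arrays correlated at r = 0.682 to 0.805 and 0.596 to 0.754 within an orientation, and at -0.633 to -0.145 between orientations, and the Cy3 arrays were turned by -1. A listed 0 was taken as not measured, which applied to between 8.99% and 23.9% of the values of an array, most on the set 2 arrays. The table holds ratios and no levels, so the macrophage label could not be checked by expression. Of 14 macrophage marker symbols, older names included, 11 were on the array, and all 11 had a ratio on all arrays. Of these, 1 passed, Adgre1, which rose by 0.55 ± 0.11 (limma, adjusted p = 0.00149). Of 8 lymphocyte markers 4 had such a ratio and 1, Cd79a, rose by 0.20 ± 0.06, while of 7 fibroblast and epithelial markers 1 had such a ratio and did not pass.

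At 1 h the phosphatase genes as a group stayed close to the untreated level, and only Ppp1r10 stood well apart from the rest. Ppp1r10, a nuclear PP1 subunit, rose most, at 1.51-fold, followed by the tyrosine phosphatase genes Ptpn2 and Ptpn12 and the myosin phosphatase subunit gene Ppp1r12a. Ptpro, Ptpn18 and Ptpn22 fell. In all, 4 of the 60 measured genes were higher and 3 were lower in treated RNA at an adjusted p under 0.05 (limma on set averages, Benjamini-Hochberg over all genes). That is 11.7% of the 60, near the 13.2% of all 8331 genes tested, of which 6.96% were higher and 6.21% lower. At an unadjusted p under 0.05 there were 17 phosphatase genes (28.3%), against 27.0% of all genes. The median ratio was 0.026 over the 60 phosphatase genes and -0.0092 over all genes, and the median absolute ratio was 0.070 against 0.069. Only Ppp1r10 went past 0.5 in either direction, 1 of 60 or 1.67%, against 2.95% of all genes. Of the other genes called, only Ptpn2 (0.28) lay further from 0 than each gene that did not pass. Among those that did not pass, Ptprz1 (-0.25) lay furthest. With zeros kept as ratios, 3 of the 7 remained called (Ppp1r10, Ptpn2 and Ptpn12), and with incomplete probes included 2 did (Ppp1r10 and Ptpn2). The 34 genes of positive mean and 26 of negative mean lay between -0.25 and 0.60. Since the RNA is from bulk culture, a lower ratio cannot tell fewer cells that express a gene from less RNA per cell.

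**Figure D1:**
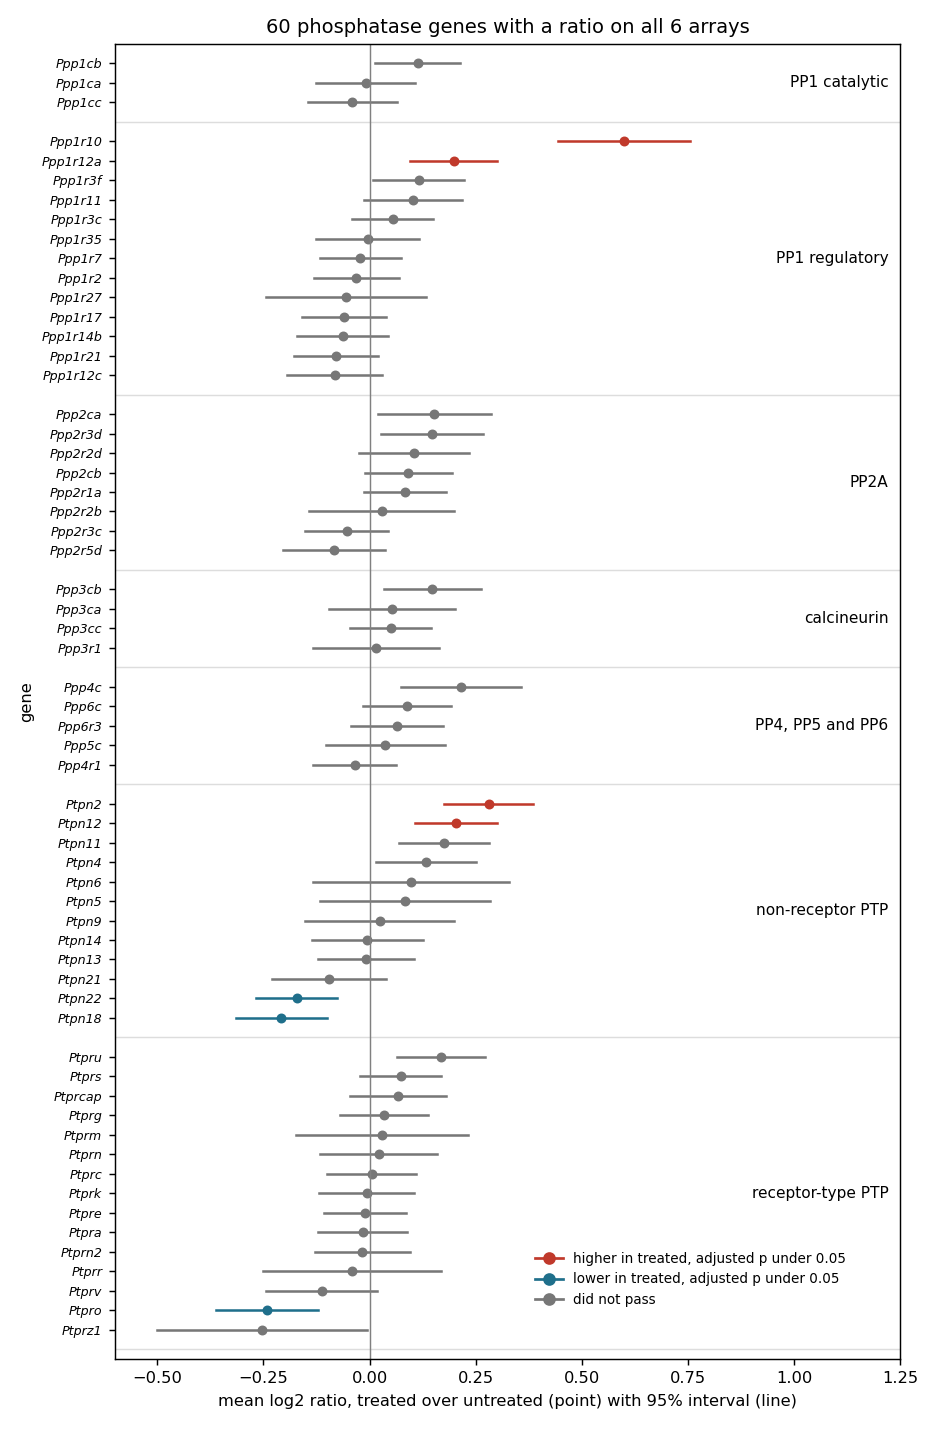
Mean log2 ratio of treated over untreated RNA (horizontal axis) for each of the 60 phosphatase genes with a ratio on all 6 arrays, by subunit class from top to bottom, with lines for the 95% interval of the limma fit on 3 set averages. Ppp1r10 at 0.60 stands to the right of all others, and the 3 genes in blue are those that fell.

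Among the regulatory subunits of PP1, 2 of 13 measured genes rose and 0 fell, 15.4% against 13.2% of all genes. At an unadjusted p under 0.05 there were 3 of 13 (23.1%), against 27.0% of all genes. Both shares are near those of all genes. Ppp1r10 encodes PNUTS, which holds PP1 in the nucleus and acts in the dephosphorylation of the transcription machinery at the ends of genes. Its ratios were 0.68, 0.65 and 0.82 on the Cy5 arrays of sets 1, 2 and 3, and 0.45, 0.28 and 0.71 on the Cy3 arrays. All 6 arrays were above 0, and the Cy3 array of set 2 was lowest. The mean was 0.60 ± 0.15 (adjusted p = 0.00229), and 138 of the 8331 genes had a larger one. Ppp1r10 was the only phosphatase gene that passed in the fit and in every alternative run. Its ratios in the alternatives were 0.48 to 0.72, with adjusted p of 0.000534 to 0.0465 (limma). It is measured by 1 probe, so the alternatives for the joining of probes left its mean at 0.60.

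Ppp1r12a encodes MYPT1, the subunit that targets PP1 to myosin, and is also measured by 1 probe. It gave 0.25, 0.32 and 0.33 on the Cy5 arrays, and 0.15, -0.014 and 0.16 on the Cy3 arrays. The Cy5 arrays were all higher than the Cy3 arrays, and 1 Cy3 array was just below 0. The mean was 0.20 ± 0.05 (adjusted p = 0.0302). It missed the threshold when set 1 (0.20), set 2 (0.22) or set 3 (0.18) was omitted, and on the Cy3 arrays alone it averaged 0.097 (adjusted p = 0.377, in a range of 0.0118 to 0.377 over its alternatives). Its relative Ppp1r12c, another myosin-targeting subunit gene, was at -0.08 ± 0.07, and the other 10 measured regulatory subunit genes lay between -0.079 (Ppp1r21) and 0.12 (Ppp1r3f, of the family that targets PP1 to glycogen). The inhibitor genes Ppp1r2 (-0.03 ± 0.04), Ppp1r11 (0.10 ± 0.08) and Ppp1r14b (-0.06 ± 0.06) did not pass, nor did Ppp1r7 (-0.022 ± 0.015), a nuclear regulator. The median over the 13 was -0.022.

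The catalytic subunits of PP1 gave no call (limma, 0 of 3, against 13.2% of all genes). At an unadjusted p under 0.05 there was 1 of 3, against 27.0% of all genes. Ppp1ca averaged -0.0088 ± 0.083, with a 95% interval of -0.13 to 0.11, and Ppp1cc averaged -0.04 ± 0.05 with an interval of -0.15 to 0.064. Ppp1cb averaged 0.11 ± 0.04 (adjusted p = 0.145, interval 0.012 to 0.21). Its probes gave 0.20 and 0.03, and the first passed when each probe was tested by itself (adjusted p = 0.0398). The intervals bound each change at well under the 0.60 of Ppp1r10.

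None of the 8 measured PP2A genes passed (limma, 0 of 8, against 13.2% of all genes), and their median was 0.088. At an unadjusted p under 0.05 there were 2 (25%), against 27.0% of all genes. The catalytic genes Ppp2ca and Ppp2cb averaged 0.15 ± 0.12 (adjusted p = 0.136) and 0.09 ± 0.04 (adjusted p = 0.225). Ppp2ca gave 0.21, 0.27 and 0.04 on the Cy5 arrays, and 0.36, -0.09 and 0.12 on the Cy3 arrays, so 1 array lay below 0. The scaffold gene Ppp2r1a was at 0.084 ± 0.025. Among regulatory subunits the largest was Ppp2r3d at 0.15 ± 0.09 (adjusted p = 0.115), a mean that joins 0.35 on the Cy5 arrays and -0.056 on the Cy3 arrays. That mean is from its 1 complete probe. Another probe, with a ratio on 3 arrays, gave -1.92 in Cy5 and 2.24 and 1.46 in Cy3. Ppp2r5d (-0.08 ± 0.09) and Ppp2r3c (-0.054 ± 0.030) were the 2 of negative mean. Ppp2r2b had the widest span between arrays in this class, from -0.74 to 1.08, around a mean of 0.03 ± 0.17.

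Calcineurin had no call either (limma, 0 of 4 measured genes, against 13.2% of all genes), and all 4 means were above 0. At an unadjusted p under 0.05 there was 1 of 4 (25%), against 27.0% of all genes. Ppp3cb, a catalytic subunit gene, averaged 0.15 ± 0.08 (adjusted p = 0.101) over probes that agreed at 0.15, 0.14 and 0.15, and it was above 0 on all 6 arrays. The other catalytic genes Ppp3ca (0.05 ± 0.14) and Ppp3cc (0.0498 ± 0.0077) and the calcium-binding subunit gene Ppp3r1 (0.01 ± 0.14) had smaller means. Against these shares of all genes, 0 of the 5 measured genes of PP4, PP5 and PP6 passed. At an unadjusted p under 0.05 there was 1 (20%). That was Ppp4c, the PP4 catalytic gene, with 0.11, 0.28 and 0.27 on the Cy5 arrays and 0.06, 0.17 and 0.41 on the Cy3 arrays. All 6 arrays were above 0, and the mean of 0.22 ± 0.13 just missed the threshold (adjusted p = 0.0646), while a fit on the 6 single arrays called it (adjusted p = 0.0338, in a range of 0.0338 to 0.189 over the alternatives). Ppp6c averaged 0.088 ± 0.048 and Ppp5c, a phosphatase that works with chaperones, 0.04 ± 0.13.

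The non-receptor tyrosine phosphatases held 4 of the 7 calls, with 2 of 12 measured genes higher and 2 lower. That is 33.3% of a small class, against 13.2% of all genes, and 6 of the 12 had 1 sign on all 6 arrays, against 19.1% of all genes. Ptpn2 encodes TC-PTP, which dephosphorylates JAK kinases and STAT factors. It gave 0.14, 0.25 and 0.16 on the Cy5 arrays, and 0.34, 0.44 and 0.35 on the Cy3 arrays. All arrays were above 0, and the Cy3 arrays were all higher than the Cy5 arrays. The mean was 0.28 ± 0.06, or 1.21-fold (adjusted p = 0.00959), over 2 probes that each gave 0.28 and each passed. Without set 1 it averaged 0.30 and did not pass (adjusted p = 0.0622), nor did the Cy5 arrays alone at 0.18 (adjusted p = 0.0871, in a range of 0.00162 to 0.0871 over the alternatives).

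Ptpn12, Ptpn18 and Ptpn22 form the PEST family of tyrosine phosphatases, which carry a tail rich in proline, glutamate, serine and threonine. All 3 passed, 1 higher and 2 lower, and that they are 1 family was seen after their values. Ptpn12, which encodes PTP-PEST, an enzyme that acts on adaptor proteins of the cytoskeleton, gave 0.11, 0.13 and 0.07 on the Cy5 arrays, and 0.33, 0.29 and 0.29 on the Cy3 arrays. Every array was above 0, with no overlap between the orientations. The mean was 0.20 ± 0.02 (adjusted p = 0.0224), and its 3 probes gave 0.23, 0.20 and 0.19. It missed the threshold without set 1 (0.20), set 2 (0.20) or set 3 (0.21), and on the Cy5 arrays alone (0.10).

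Ptpn22, whose product works with the kinase Csk to restrain antigen receptor signalling, gave -0.19, -0.08 and -0.15 on the Cy5 arrays, and -0.19, -0.27 and -0.15 on the Cy3 arrays. All 6 arrays were below 0 and the orientations overlapped. It fell by 0.17 ± 0.02, or 1.13-fold (adjusted p = 0.0397), over a probe at -0.19 that passed (adjusted p = 0.0347) and another at -0.16 (adjusted p = 0.0706). No call was left without set 1 (-0.16), set 2 (-0.17) or set 3 (-0.18), or with either orientation alone (-0.14 in Cy5 and -0.20 in Cy3). Ptpn18 gave -0.24, -0.19 and -0.35 on the Cy5 arrays, and -0.17, -0.11 and -0.18 on the Cy3 arrays, again with all arrays below 0 and with the Cy5 arrays lower than the Cy3 arrays. It fell by 0.21 ± 0.06 (adjusted p = 0.0298), over a probe at -0.26 that passed and another at -0.16 (adjusted p = 0.118). Without set 1 (-0.21) or set 3 (-0.18) it did not pass, nor on the Cy3 arrays alone (-0.15).

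**Figure D2:**
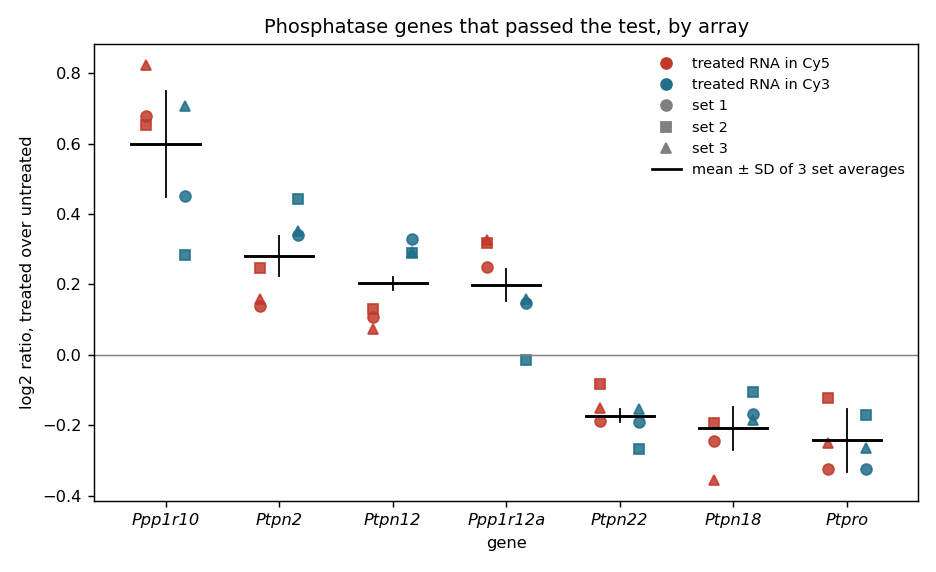
Log2 ratio of treated over untreated RNA (vertical axis) on each of the 6 arrays for the 7 phosphatase genes that passed, with colour for the dye of the treated RNA, symbols for the set, and black lines for the mean ± SD of the 3 set averages. Ppp1r12a has 1 array just below 0, and the other 6 genes have all arrays on 1 side. The Cy5 and Cy3 arrays do not overlap for Ptpn2, Ptpn12, Ppp1r12a and Ptpn18. The share of all genes without such overlap was not counted.

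The remaining non-receptor genes did not pass. Ptpn11, which encodes SHP-2, a positive mediator of growth factor signals, lay just outside at 0.17 ± 0.06 (adjusted p = 0.051), with 0.15, 0.17 and 0.14 in Cy5 and 0.24, 0.04 and 0.29 in Cy3. All 6 arrays were above 0, its probes were at 0.24, 0.19 and 0.09, and the first passed when probes were tested singly (adjusted p = 0.016, in a range of 0.016 to 0.235 over the alternatives). Ptpn4 was at 0.13 ± 0.09 and Ptpn21 at -0.10 ± 0.12. Ptpn6, which encodes SHP-1, the enzyme that inhibitory receptors recruit in blood cells, averaged 0.10 ± 0.26 (adjusted p = 0.564), but this mean joins arrays that were far apart. On the Cy5 arrays it gave -0.82, -0.79 and -1.32, and on the Cy3 arrays it gave 1.48, 1.08 and 0.96. The 95% interval of the mean, -0.13 to 0.33, therefore rests on the averaging of both orientations.

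Of the receptor types, most had a ratio near 0, with 0 of 15 measured genes higher and 1 lower. That is 6.67%, against 13.2% of all genes. At an unadjusted p under 0.05 there were 3 (20%), against 27.0% of all genes. Ptpro, the receptor type known from kidney podocytes as GLEPP1, gave -0.32, -0.12 and -0.25 on the Cy5 arrays, and -0.32, -0.17 and -0.26 on the Cy3 arrays. All 6 arrays were below 0, the set 2 arrays least, and the orientations overlapped throughout. It fell by 0.24 ± 0.09, or 1.18-fold (adjusted p = 0.0262), over probes at -0.26 and -0.22 that both passed. Without set 1 (-0.20) or set 3 (-0.24) it did not pass, nor on the Cy5 arrays (-0.23) or the Cy3 arrays (-0.25) alone.

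Ptprc, which encodes CD45, the abundant phosphatase of blood cell surfaces that activates Src-family kinases, averaged 0.0047 ± 0.057, with a 95% interval of -0.10 to 0.11. This mean joins 2 complete probes of opposite sign, at 0.13 and -0.12, neither of which passed, so the interval does not cover the difference between probes. Its partner gene Ptprcap, which encodes a CD45-associated protein and no phosphatase, averaged 0.07 ± 0.07. Ptpre, another receptor type of macrophages, averaged -0.01 ± 0.02, and the related Ptpra -0.02 ± 0.06. Ptpru was at 0.17 ± 0.05 (adjusted p = 0.0522), with 1 array at -0.0068 and the others above 0. Ptprz1, a receptor type of the nervous system, had the lowest mean of the 60 at -0.25 ± 0.28 but did not pass (adjusted p = 0.176). That mean is from its 1 complete probe, and another probe, with a ratio on 5 arrays, averaged 0.12. The arrays of the complete probe ran from -0.99 to 0.26. The mean of the gene moved with the setting, to -0.12 without set 1 and -0.077 with zeros kept as ratios. Ptprz1 passed when set 3 was omitted (-0.40, adjusted p = 0.0229, in a range of 0.0229 to 0.612 over the alternatives).

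The dye orientations gave like ratios for some of these genes and opposite ratios for others. Orientation means had opposite signs for 27 of the 60 phosphatase genes (45%), against 51.0% of all genes. All 3 arrays of an orientation lay on 1 side of 0 and all 3 of the other on the opposite side for 6 of the 60 (10%), against 13.7% of all genes. Ptpn6 was the most extreme of them, at -0.98 ± 0.30 in Cy5 and 1.17 ± 0.28 in Cy3 (SD over 3 arrays). In a fit on the 6 single arrays with a dye term, that term passed for Ptpn6 (adjusted p = 0.00557) and for Ptprk (adjusted p = 0.0388), 3.33% of the 60, against 3.32% of all genes. Tested on set averages, the dye effect of Ptpn6 did not pass (adjusted p = 0.0539), and it passed for 0.0600% of all genes. Ptprk, which encodes a cell-adhesion receptor type, averaged -0.28 ± 0.12 in Cy5 and 0.27 ± 0.07 in Cy3. Each of the 7 genes that passed had orientation means of the same sign. A test on averages of both orientations favours such genes.

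**Figure D3:**
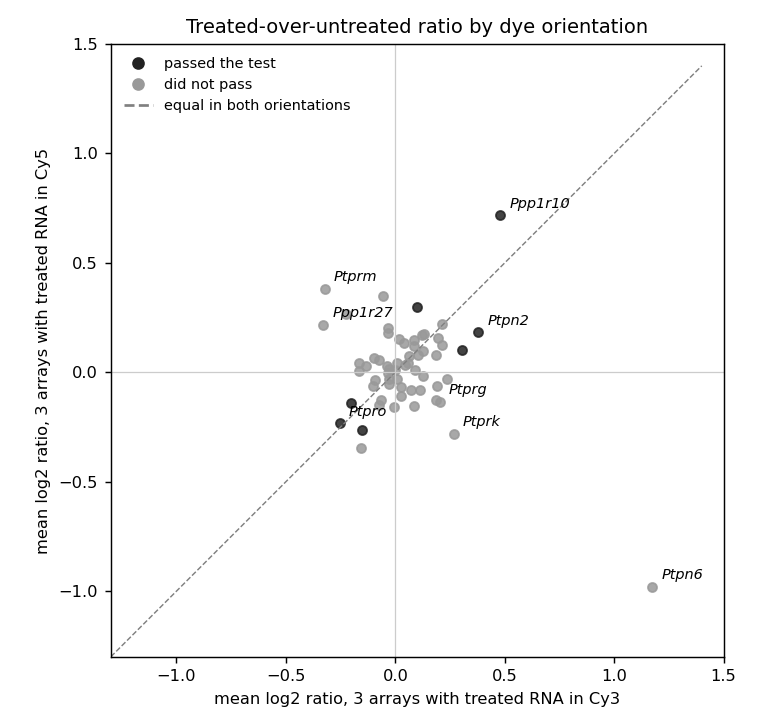
Mean log2 ratio of treated over untreated RNA on the 3 Cy3 arrays (horizontal axis) and the 3 Cy5 arrays (vertical axis) for 60 phosphatase genes, with black points for the genes that passed and a dashed line of equal ratios. Ptpn6 lies far off the line at 1.17 and -0.98, whereas Ppp1r10 lies near it at 0.48 and 0.72.

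The other 15 genes lacked a probe with a ratio on all arrays. Ptprj, which encodes CD148, and Ppp1r3g were listed at 0 on all 6 arrays. Ptpn1, which encodes PTP1B, had a ratio on 2 arrays, -0.68 in Cy5 of set 1 and 0.06 in Cy3 of set 2. These values were of opposite sign. With incomplete probes included, 12 of the 15 could be fitted and 0 of them passed (limma, with 1 at an unadjusted p under 0.05). The largest of these ratios were those of Ptpn1 (-0.31, adjusted p = 0.466) and Ppp1r9a (0.23, adjusted p = 0.481), a neuronal PP1 subunit gene.

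Genes that work beside these enzymes were counted from 3 lists, each small and to be read against the 13.2% of all genes that passed. The first list holds Ppm, Ptp4a, Cdc25, Eya and a few other phosphatase genes, and leaves out the dual-specificity Dusp genes and Ppp1r15a. Of its 17 measured genes, 0 rose and 1 fell (5.88%). This was Cdc25b, an activator of cyclin-dependent kinases, which fell by 0.31 ± 0.09 (adjusted p = 0.011). Of 21 measured modulators of PP1, PP2A and calcineurin, 2 rose and 0 fell (9.52%). Rcan1, a regulator of calcineurin, rose by 0.60 ± 0.08 (adjusted p = 0.000694), about the size of Ppp1r10, while the calcineurin subunits themselves gave no call. Ensa, which inhibits a form of PP2A once phosphorylated, rose by 0.23 ± 0.05 (adjusted p = 0.0171). Of 23 tyrosine kinases, adaptors and inhibitory receptors that work with the tyrosine phosphatases, 2 rose and 2 fell (17.4%). The receptor gene Lilrb4a rose by 1.89 ± 0.11, and Cd22, another receptor that recruits SHP-1 and is best known from B cells, rose by 0.77 ± 0.12. The adaptor gene Dok1 fell by 0.98 ± 0.15, and Pag1, which anchors Csk at the membrane, fell by 0.22 ± 0.08, though with 4 of 6 arrays on 1 side. The medians of the lists were 0.0087, 0.0046 and 0.0076.

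Promoter sequences of the genes that moved are shown because they differ plainly in base composition and in the short motifs they hold. RefSeq's table (GRCm38.p6) held a start for 60 of the 75 genes and for 5 of the 7 that passed, and the 250 bases before the start furthest upstream were read, 5′ to 3′ on the gene's strand. Capitals mark a match to any of 7 motifs on either strand. They are TGANTCA (AP-1), TGACGTCA (the cAMP response element), the NF-kappaB consensus, GGGCGG (the GC box), GCGNGGGCG (EGR factors), the serum response factor consensus and TATAAA, and a GC box can overlap an EGR match. Ptpn2 and Ptpn12 are named only. Of the windows shown, those of genes that rose are Ppp1r10 (chr17:35916946-35917195, plus strand) and Ppp1r12a (chr10:108161848-108162097, plus strand). Those that fell are Ptpn18 (chr1:34459496-34459745, plus strand), Ptpn22 (chr3:103859545-103859794, plus strand) and Ptpro (chr6:137252049-137252298, plus strand).
Ppp1r10: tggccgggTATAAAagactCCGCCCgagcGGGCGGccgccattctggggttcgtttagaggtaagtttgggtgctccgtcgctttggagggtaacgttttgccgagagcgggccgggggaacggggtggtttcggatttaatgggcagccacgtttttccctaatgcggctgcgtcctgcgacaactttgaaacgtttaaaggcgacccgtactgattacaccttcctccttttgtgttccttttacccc
Ppp1r12a: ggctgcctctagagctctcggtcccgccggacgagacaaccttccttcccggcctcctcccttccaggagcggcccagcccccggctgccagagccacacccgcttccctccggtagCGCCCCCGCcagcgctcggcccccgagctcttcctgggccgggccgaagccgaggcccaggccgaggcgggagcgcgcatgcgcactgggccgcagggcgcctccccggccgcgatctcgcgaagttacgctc
Ptpn18: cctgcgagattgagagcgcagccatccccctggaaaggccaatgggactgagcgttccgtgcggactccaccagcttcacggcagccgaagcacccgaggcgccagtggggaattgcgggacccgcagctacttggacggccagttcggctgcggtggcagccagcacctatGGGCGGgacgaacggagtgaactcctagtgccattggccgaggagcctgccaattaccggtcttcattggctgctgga
Ptpn22: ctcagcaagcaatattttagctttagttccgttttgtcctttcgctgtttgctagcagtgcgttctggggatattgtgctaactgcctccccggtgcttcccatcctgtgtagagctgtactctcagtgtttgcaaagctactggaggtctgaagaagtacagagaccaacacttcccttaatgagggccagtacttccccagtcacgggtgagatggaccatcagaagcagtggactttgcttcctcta
Ptpro: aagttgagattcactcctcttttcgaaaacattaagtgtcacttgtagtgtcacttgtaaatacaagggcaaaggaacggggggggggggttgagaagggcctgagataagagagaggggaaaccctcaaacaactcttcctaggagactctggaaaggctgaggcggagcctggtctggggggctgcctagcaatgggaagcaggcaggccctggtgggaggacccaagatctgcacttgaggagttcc
Ppp1r10 held a TATAAA and 2 GC boxes within a window of 56% G and C, Ppp1r12a held an EGR match in a window of 75.2%, and Ptpn18 held a GC box in 64%. The windows of Ptpn22 (49.2%) and Ptpro (53.6%) held no match and had 5 and 3 CG pairs, against 22 in Ppp1r10, 30 in Ppp1r12a and 19 in Ptpn18.

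The 60 phosphatase genes with a window are not the same 60 as those with a ratio on all arrays. Over the 60 phosphatase windows, GGGCGG was found in 61.7%, against 53% of the 6673 windows of genes tested and 33% of all 27025. GCGNGGGCG was found in 23.3%, against 7.88% and 4.63%, and TGACGTCA in 8.33%, against 2.17% and 1.6%. The NF-kappaB consensus was found in 3.33%, against 8.14% and 7.03%, and TATAAA in 8.33%, against 9.35% and 13%. TGANTCA and the serum response factor consensus were found in 0 of the 60, against 5.66% and 1.33% of the windows of genes tested. The 5 genes with TGACGTCA were Ppp1r12c, Ppp2ca, Ppp2r2d, Ptpn11 and Ptpru, none of which passed the test. The median share of G and C was 63.8% in the phosphatase windows, 58.4% in those of genes tested and 52% in all, and its part in the motif shares was not tested. A match is a run of letters in this window, not a bound site.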

How the data were processed

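Per the labels, each array compared 2 dye-labelled RNAs, and the authors deposited a log2 ratio of the channels for each of 16281 probes. Its base was read from the values: 99.73% to 99.89% of the non-zero values of an array become numbers of 6 digits when turned to log10 (tolerance 1e-13), and 0% are such numbers as given. Scanner, background correction and normalization are not given in the sources used here. Array medians of 0.00432 to 0.0159 were near 0, but how arrays were centred is unknown. Array values carry no depth, and the number of arrays limits the precision.

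Cy3 arrays were multiplied by -1 and an exact 0 was set to missing. Symbols came from GEO's platform annotation (1 symbol for 13738 probes, several symbols for 52, no symbol for 2491), and gene IDs of 13694 probes matched RefSeq (GRCm38.p6), which changed 0 symbols. All 9968 probes that had 1 symbol and no missing ratio were averaged by gene, giving 8331 genes. Averaging the 2 arrays of each set removes a dye effect common to both. limma 3.58.1 in R 4.3.3 (lmFit and eBayes, two-sided, prior degrees of freedom 4.08, residual 2) then tested the 3 set averages against 0, at a Benjamini-Hochberg adjusted p under 0.05 over all genes. Because nothing says that sets are separate cultures, the p-values describe the spread among these samples alone, and that spread may be technical.

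The fit was tested on simulated data, and recovery was required there only for effects larger than the mean of any phosphatase gene. The phosphatase genes, the lists and the naming rule were chosen with earlier results of these data known. The rule names each phosphatase gene that passed, 19 fixed symbols and the 2 genes of largest absolute ratio per class, and other genes were named after their values were seen. Alternatives changed the handling of zeros, incomplete probes, normalization, centring, orientation, sets, single arrays, the variance prior and the joining of probes.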

Additional observations from a re-analysis of the deposited data

Results flagged for a closer look

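For 6 phosphatase genes, all 3 arrays with treated RNA in Cy5 and all 3 with treated RNA in Cy3 lay on opposite sides of 0, 10% of the 60 against 13.7% of all genes. The mean ratio in Cy5 minus that in Cy3 was -2.15 for Ptpn6, -0.548 for Ptprk, 0.548 for Ppp1r27, -0.336 for Ptprg, -0.254 for Ppp6r3 and 0.165 for Ptpra. The dye term of a limma fit on the 6 single arrays passed for Ptpn6 (adjusted p = 0.00557) and Ptprk (adjusted p = 0.0388) and not for the other 4. None of the 6 genes passed the test of treatment. Ptpn6 is measured by 1 probe, so no second probe could be set beside it.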

How the results depend on the processing

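Ppp1r10, measured by 1 probe, was the only phosphatase gene called under all 14 alternatives. The 4 phosphatase genes higher became 2 with incomplete probes included and 2 on the Cy5 arrays alone, and 1 to 2 with 1 set omitted. The count of 3 lower became 0 with zeros kept as ratios, 0 with incomplete probes included and 0 on the Cy3 arrays alone, and 0 to 2 with 1 set omitted (limma in each). Without set 3 the 1 lower gene was Ptprz1, so none of the 3 was called there. Over all genes, 1097 calls became 655 with incomplete probes, 649 on the Cy3 arrays alone and 499 to 832 with 1 set omitted. The Cy5 arrays alone gave 1035. Some of these fits hold fewer arrays and others more genes, and the cause of the change in calls was not tested. Ptpn6 reversed, to -0.98 on the Cy5 arrays alone (adjusted p = 0.00992), against 1.17 on the Cy3 arrays alone. Quantile normalization, centring on the median and a robust prior each called the same 7 genes. The deviations of the arrays of 1 set correlated at r = -0.0077, -0.281 and -0.0943, while limma estimated a consensus correlation of 0.0825 within sets. The main fit still joined arrays by set number, as 1 average per set, though the labels do not say that they share extracts. A fit on 6 arrays with the set as a replicate block called 6 phosphatase genes higher and 3 lower, and 1340 genes in all, and without the block 6, 3 and 1439. Both added Ppp4c and Ptpn11 to the 7. Ratios carry no signal over background, so dim probes could not be set apart.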
